A study of Homo sapiens with 4 samples.

Results

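The genes described here encode the nuclear pore complex and the receptors that carry cargo through it: nucleoporins, importins, exportins, transportins and the regulators of the small GTPase Ran. They were taken by matching gene symbols, and they number 58 of the 60609 gene IDs in the table. The cells were CCRF-CEM/HA-AMPKa2, a derivative of a T cell leukaemia line whose label names an HA-tagged AMPK alpha 2 subunit, and every library of both groups carries it. The tested condition, No glucose, was 24 h in medium lacking glucose (libraries ONG_9 and ONG_10), and its counterpart, Ctrl, was 24 h in control medium (libraries CTRL_7 and CTRL_8), with RPMI and 10% FBS as growth medium. Total RNA was read by stranded RNA-seq (TruSeq Stranded Total RNA, single-end), and the comparison asks which transcripts differ when the sugar is withheld. Whether the line is 1 clone, and whether the 2 libraries of a group came from separate cultures, is not stated, so the tests cover the spread between libraries alone, and that spread may be technical. As RNA was extracted in bulk, fewer cells of a kind and less RNA per cell cannot be told apart.

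The nuclear pore is a ring-shaped channel through the nuclear envelope, built from repeated copies of nucleoporins: a membrane anchor, an inner ring, outer rings made of the Y complex, a central channel filled with phenylalanine-glycine (FG) repeats, filaments on the cytoplasmic side and a basket on the nuclear side. Importins bind cargo in the cytoplasm and release it in the nucleus when they meet Ran bound to GTP, whereas exportins bind cargo together with RanGTP and release it outside, where RANGAP1 and RANBP1 help Ran hydrolyse its GTP. Growing and dividing cells, leukaemia cells among them, need this traffic for ribosome assembly and for entry of nuclear proteins, and XPO1 is a drug target in blood cancers.

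Reads recovered in genes numbered 19035535 and 20081266 in the No glucose libraries and 96698709 and 24513840 in the Ctrl libraries. The 58 genes together took 1.17% and 1.14% of these reads in the No glucose libraries, against 1.42% and 1.43% in the Ctrl libraries. Of 10 T lineage markers, 9 had a mean of at least 100 normalized counts, and the pre-T receptor gene PTCRA was near 0. These markers did not move together. NOTCH1 had 2726 and 4288 normalized counts in the No glucose libraries and 6778 and 5918 in the Ctrl libraries, and CD7 had 269.9 and 523 in the No glucose libraries and 756 and 666 in the Ctrl libraries. CD3E had 8846 and 8337 in the No glucose libraries and 5882 and 5928 in the Ctrl libraries. The sum of the 10 was 59889 and 61488 in the No glucose libraries and 65387 and 63697 in the Ctrl libraries, most of it from CD3D and LCK. Myeloid and erythroid markers summed to under 5 normalized counts in every library. Among B cell markers, CD79A had 423 and 449 normalized counts in the No glucose libraries and 670.5 and 663 in the Ctrl libraries, while MS4A1 was near 0. CD79B had 84.9 and 78.6 in the No glucose libraries and 197 and 189.9 in the Ctrl libraries. Adherent cell markers, nearly all EPCAM, summed to 431 and 409.7 in the No glucose libraries and 486 and 539 in the Ctrl libraries. The part of these markers in the results was not tested.

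Most of the pore and transport genes were lower without glucose. Of the 57 that passed the filter on low values, 45 fell and 3 rose (KPNA5, POM121 and NUP98), while 9 did not pass the limma test at an adjusted p of 0.05. Over all 27486 genes tested, 20.7% were called lower and 14.4% higher. Protein-coding genes with a mean of at least 50 normalized counts are the closer background, and there 47.2% of 10656 were called lower and 18.9% higher. The 56 genes of the set in that class had 45 lower calls (80.4%) and 3 higher calls (5.36%), and their median log2 fold change was -0.53, against -0.20 for the class. For all 57 the median was -0.52, the range ran from -1.69 to 0.48, and 30 lay below -0.5. The authors' deposited table also had 45 of the genes lower and 3 higher, against 25.3% lower and 12.5% higher of the 19053 genes tested there.

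The 2 libraries of each group lay close together, and in 55 of the 57 genes the groups did not overlap, with No glucose below Ctrl in 48 and above it in 7. Over all genes tested, groups were apart in 66.8%, with No glucose lower in 31.7% and higher in 35.1%. Among protein-coding genes with a mean of at least 50, they were apart in 85.3%, with No glucose lower in 57.9% and higher in 27.4%. Overlapping values were found for KPNA1 and IPO8. The gene left out of the tests was KPNA7, an importin alpha, with 0 and 2.81 normalized counts in the No glucose libraries and 0.343 and 0 in the Ctrl libraries. These counts moved with the libraries used and with the scaling. Without CTRL_7 20 genes were called lower and 0 higher, and without CTRL_8 21 and 0, with medians of -0.50 and -0.55. Without ONG_9 46 were lower and 3 higher, and without ONG_10 45 and 4. Calls that held without CTRL_7 and also without CTRL_8 were those of RANBP1, RAN, KPNA3, KPNB1, IPO5, IPO11, CSE1L, XPO1, XPO5 and XPO6. They were joined by NUP85, NUP43, NUP155, NUP93, NUP62, NUP88, AAAS, NUP210, NDC1 and NUP62CL. The other 28 calls were lost without CTRL_7 and, but for TNPO2, without CTRL_8. Scaling by library totals, which moved the median of all genes tested to 0.23, against 0.04, gave 39 lower and 9 higher, so that 18.75% of the calls were higher, against 6.25%.

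**Figure D1:**
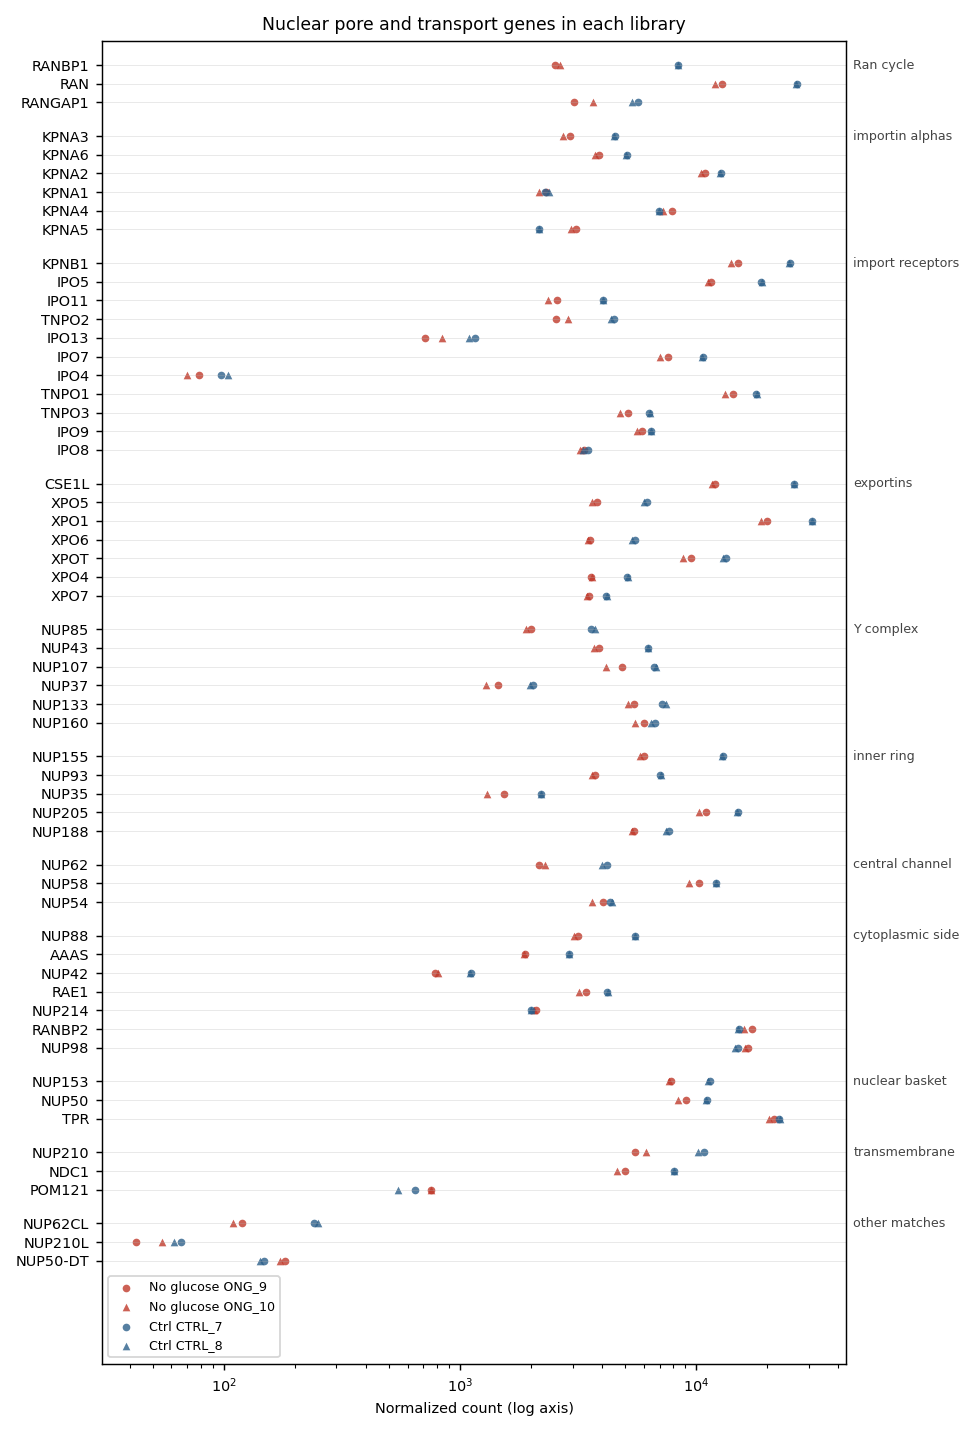
Normalized count of each gene in each of the 4 libraries (log axis), grouped by role, with No glucose in red and Ctrl in blue. In 48 of the 57 genes both red points lie left of both blue points. In 7, among them KPNA5, NUP98 and POM121, they lie right of them.

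The pore and its soluble carriers had like medians. Of 27 structural pore genes 22 fell and 2 rose, with a median log2 fold change of -0.49. Of the 27 soluble transport genes tested 22 fell and 1 rose, with a median of -0.54. The spread within each role was wider than the gap between these medians. Of the coding genes with a mean of at least 50, 47.2% fell and 18.9% rose, with a median of -0.20.

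**Figure D2:**
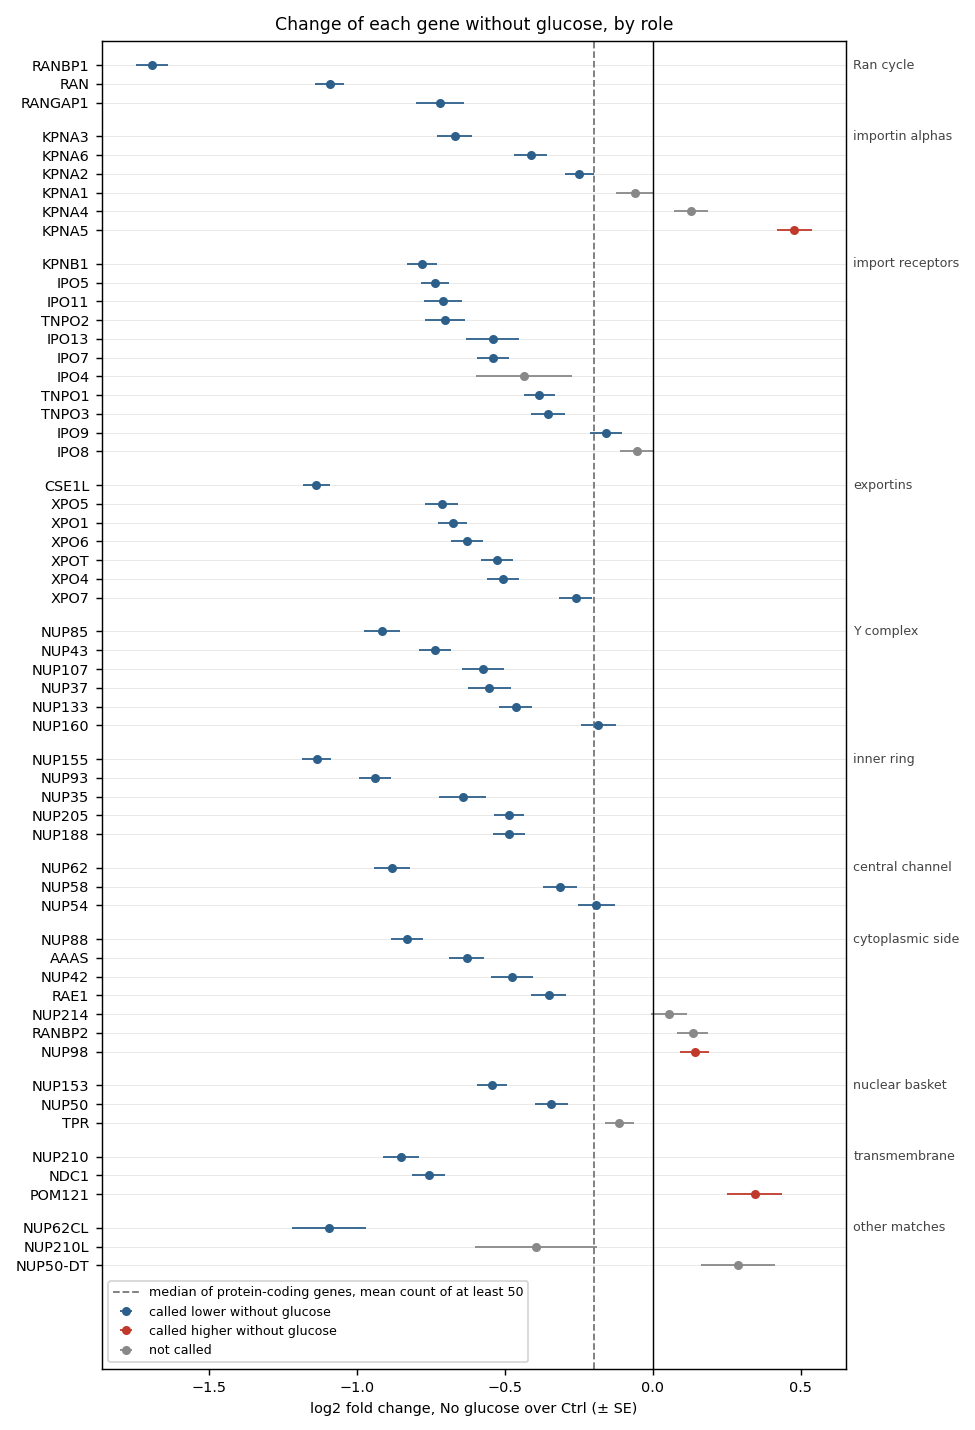
The log2 fold change of each gene, No glucose over Ctrl, with its standard error as a bar (x axis), grouped by role, in blue for genes called lower, red for genes called higher and grey for the rest. RANBP1 lies farthest left at -1.69 and KPNA5 farthest right at 0.48, and the dashed line marks the median of the protein-coding genes, -0.20.

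The Ran cycle held the deepest fall. RANBP1, which binds RanGTP and helps RANGAP1 act on it, had 2537 and 2646 normalized counts in the No glucose libraries, against 8356 and 8389.5 in the Ctrl libraries. Both No glucose values were far below both Ctrl values, well outside the spread of either pair. Its log2 fold change was -1.69 ± 0.05 (SE; limma, adjusted p = 8.1e-09), the lowest of the 57. RAN itself, the GTPase that gives transport its direction, had 12899.9 and 12074 normalized counts in the No glucose libraries and 26614 and 26586 in the Ctrl libraries. The No glucose pair differed from each other by more than the Ctrl pair but stayed far below it, and the log2 fold change was -1.09 ± 0.05 (SE; limma, adjusted p = 6e-08). RANGAP1, the GTPase activator of Ran, had 3042 and 3676 normalized counts in the No glucose libraries and 5656 and 5350.4 in the Ctrl libraries. Its No glucose values were the most scattered of the 3 for their level, and the log2 fold change was -0.72 ± 0.08 (SE; limma, adjusted p = 3.3e-05).

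RANBP1 fell by more than RAN, so their ratio moved too. RANBP1 to RAN was 0.197 and 0.219 in the No glucose libraries and 0.314 and 0.316 in the Ctrl libraries. The ratio is taken within a library and does not depend on the scaling. RANBP1 lies on chromosome 22 (chr22:20115938-20127357, plus strand, hg38) and RAN on chromosome 12 (chr12:130871879-130877678, plus strand). Annotated processed pseudogenes of RAN held few reads, at most 22.7 normalized counts for RANP4 in ONG_9.

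Compared per kb of principal transcript, RANBP1 and RAN stood first and second in Ctrl cells, with 10004 ± 27.9 and 9996 ± 7.37 normalized counts per kb (SD, n = 2), and these neighbours did not differ beyond their spread. In No glucose cells RAN led with 4693 ± 219.5 per kb, followed by TNPO1 with 4573 ± 254 and KPNA2 with 4352 ± 104, whose spreads overlap, while RANBP1 had 3096 ± 92.7. This order depends on the length used and was not tested. With the merged length of all exons, an alternative chosen after the data were seen, RANBP1 had 561 ± 16.8 per kb in No glucose cells and 1812 ± 5.05 in Ctrl cells (SD, n = 2 each). On that scale KPNA2 led in No glucose cells with 3404 ± 81.1 per kb, and CSE1L led in Ctrl cells with 6827 ± 1.22 per kb, ahead of RAN with 5513 ± 4.07.

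Importin alphas, the adaptors that read the classical nuclear localization signal and hand the cargo to KPNB1, moved in both directions. Of the 6 tested, 3 fell, 1 rose and 2 did not pass the test, and their median was -0.15. These values are near those of the coding genes with a mean of at least 50, of which 47.2% fell and 18.9% rose with a median of -0.20. KPNA3 had 2931 and 2730.5 normalized counts in the No glucose libraries and 4514 and 4484 in the Ctrl libraries. The groups were well apart, with a log2 fold change of -0.67 ± 0.06 (SE; limma, adjusted p = 5e-06). KPNA6 also fell, by 0.41 on the log2 scale. KPNA2, the adaptor typical of proliferating cells, had 10869.7 and 10509 normalized counts in the No glucose libraries and 12757 and 12636 in the Ctrl libraries. It was lower in both No glucose libraries by a small margin, with a log2 fold change of -0.25 ± 0.05 (SE; limma, adjusted p = 0.0019), but with library totals as the scale the value was -0.04 (adjusted p = 0.39).

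KPNA5 went the other way and rose the most of all 57 genes. It had 3092 and 2941 normalized counts in the No glucose libraries, against 2163 and 2164 in the Ctrl libraries. Both No glucose libraries were higher, with a log2 fold change of 0.48 ± 0.06 (SE; limma, adjusted p = 7.1e-05). Leaving out either Ctrl library raised the adjusted p to 0.063. KPNA5 is closely related to KPNA1 and KPNA6, yet KPNA1 had 2315 and 2158 normalized counts in the No glucose libraries and 2293 and 2373 in the Ctrl libraries, with groups that overlap. The KPNA1 log2 fold change was -0.06 (95% interval -0.20 to 0.08), and 0.15 with library totals. KPNA4, the near relative of KPNA3, had 7913 and 7269.6 normalized counts in the No glucose libraries and 6936 and 6941 in the Ctrl libraries. With both No glucose values higher, the log2 fold change was 0.13 ± 0.06 (SE; limma, adjusted p = 0.11), which did not pass the test.

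As shares of the summed importin alpha level per kb, KPNA2 held 62.3% and 63.1% in the No glucose libraries and 63.4% and 63.2% in the Ctrl libraries. KPNA4 held 12.4% and 11.9% in the No glucose libraries and 9.42% and 9.49% in the Ctrl libraries. KPNA3 held 9.23% and 9.0% in the No glucose libraries, against 12.3% in both Ctrl libraries. KPNA4 thus ranked above KPNA3 without glucose and below it in Ctrl. KPNA5, the least of the 6, held 3.85% and 3.83% in the No glucose libraries and 2.33% and 2.35% in the Ctrl libraries. These shares are descriptions, and with merged exon length in place of the principal transcript KPNA2 held 57.5% and 58.3% in the No glucose libraries and 58.4% and 58.2% in the Ctrl libraries. With that length KPNA5 held 4.50% and 4.48% in the No glucose libraries, level with KPNA1 at 4.55% and 4.45%.

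**Figure D3:**
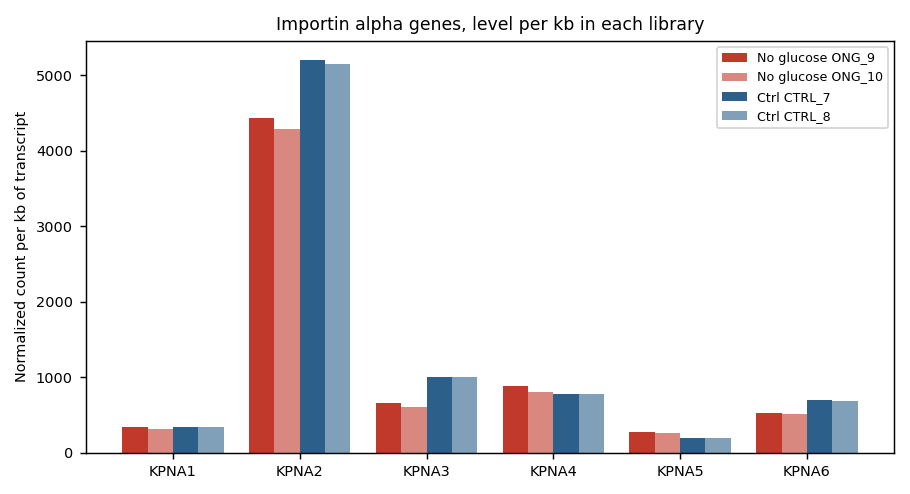
Level of each importin alpha gene, in normalized counts per kb of principal transcript (y axis), with 1 bar per library, No glucose in red and Ctrl in blue. KPNA2 has the tallest bars in every library, and KPNA5 is the one gene called higher without glucose.

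Import receptors of the importin beta family bind cargo, or an importin alpha, and carry it through the FG repeats. Of 11, 9 fell (81.8%) and none rose, with a median of -0.54. The coding genes with a mean of at least 50 fell in 47.2% and rose in 18.9%, with a median of -0.20. KPNB1, importin beta 1 and the partner of all importin alphas, had 14992 and 14037 normalized counts in the No glucose libraries and 25022 and 24785 in the Ctrl libraries. The pairs lay far apart, with a log2 fold change of -0.78 ± 0.05 (SE; limma, adjusted p = 4.9e-07), the lowest of this role. IPO5 and IPO7, importers of ribosomal proteins and histones among others, fell with log2 fold changes of -0.74 and -0.54. TNPO2 fell at -0.70 and its relative TNPO1, the receptor for many RNA-binding proteins, at -0.38. Log2 fold changes were -0.71 for IPO11, -0.54 for IPO13 and -0.35 for TNPO3, which imports splicing factors rich in serine and arginine.

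IPO9, another importer of histones, fell the least of the called genes of this role. It had 5918 and 5609.7 normalized counts in the No glucose libraries and 6415 and 6441 in the Ctrl libraries. The difference was small, with a log2 fold change of -0.16 ± 0.05 (SE; limma, adjusted p = 0.041), and its direction flipped to 0.05 with library totals. IPO8 had 3336 and 3219 normalized counts in the No glucose libraries and 3476 and 3328 in the Ctrl libraries, so the groups overlap. Its log2 fold change was -0.05 (95% interval -0.18 to 0.07), and 0.16 with library totals. IPO4 was low, with 78.8 and 70.2 normalized counts in the No glucose libraries and 97.6 and 104 in the Ctrl libraries. Its log2 fold change of -0.43 ± 0.16 (SE) did not pass limma's test (adjusted p = 0.061) but did with edgeR (adjusted p = 0.035). Over 3470 bases IPO4 shares exons with another gene on its strand.

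KPNB1 and KPNA2 form the classical import pair, and their ratio was 1.38 and 1.34 in the No glucose libraries, against 1.96 in both Ctrl libraries. The receptor thus fell relative to its main adaptor in both No glucose libraries.

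All 7 exportins fell, with a median log2 fold change of -0.63. By comparison, 47.2% of the coding genes with a mean of at least 50 fell, and their median was -0.20. CSE1L, the exportin that returns importin alphas to the cytoplasm, had 11986 and 11618 normalized counts in the No glucose libraries and 25938 and 25944 in the Ctrl libraries. The No glucose pair lay far below the Ctrl pair, and the log2 fold change was -1.14 ± 0.05 (SE; limma, adjusted p = 3.5e-08). XPO1, which exports proteins bearing leucine-rich export signals, had 19914 and 18799 normalized counts in the No glucose libraries and 31014 and 30811 in the Ctrl libraries. These groups too were far apart, with a log2 fold change of -0.68 ± 0.05 (SE; limma, adjusted p = 1e-06). XPO5, the exporter of microRNA precursors, had a log2 fold change of -0.71, XPO6, which exports actin, of -0.63, XPOT, the tRNA exporter, of -0.52, and XPO4 of -0.51. XPO7 had 3525 and 3438 normalized counts in the No glucose libraries and 4151 and 4191 in the Ctrl libraries. It was the exportin that moved least, with a log2 fold change of -0.26 ± 0.05 (SE; limma, adjusted p = 0.003), and -0.05 with library totals (adjusted p = 0.39).

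Relative to the other exportins, and to its cargo KPNA2, CSE1L was lower in both No glucose libraries. Per kb of principal transcript it made up 29.3% and 29.7% of the summed exportin level in the No glucose libraries and 37.5% and 37.8% in the Ctrl libraries. XPO1 made up 35.2% and 34.7% in the No glucose libraries and 32.4% and 32.5% in the Ctrl libraries. The order of these genes thus turned between the groups, but with merged exon length CSE1L led in both, with 39.7% and 40.1% in the No glucose libraries and 49.2% and 49.5% in the Ctrl libraries. CSE1L to KPNA2 was 1.10 and 1.11 in the No glucose libraries and 2.03 and 2.05 in the Ctrl libraries. CSE1L lies at chr20:49046246-49096960 on the plus strand and XPO1 at chr2:61477849-61538626 on the minus strand.

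Of the Y complex, which coats the outer rings of the pore, the 6 genes placed in this role all fell, with a median of -0.56. The role does not hold every gene of the complex. In coding genes with a mean of at least 50, 47.2% fell and the median was -0.20. NUP85 had 1991 and 1907 normalized counts in the No glucose libraries and 3595 and 3749 in the Ctrl libraries. The pairs did not overlap, and the log2 fold change was -0.91 ± 0.06 (SE; limma, adjusted p = 5.9e-07). Log2 fold changes were -0.74 for NUP43, -0.57 for NUP107, -0.55 for NUP37 and -0.46 for NUP133. NUP160 had 6041 and 5529.7 normalized counts in the No glucose libraries and 6684 and 6447 in the Ctrl libraries. Its groups came near each other, with a log2 fold change of -0.18 ± 0.06 (SE; limma, adjusted p = 0.031) that flipped to 0.03 with library totals.

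The inner ring, which ties the pore to the membrane, fell in all 5 members, with a median of -0.64. For coding genes with a mean of at least 50 the share that fell was 47.2% and the median -0.20. NUP155 had 6010.3 and 5803 normalized counts in the No glucose libraries and 13050.0 and 12908 in the Ctrl libraries. As with CSE1L, the No glucose values lay far below the Ctrl values, with a log2 fold change of -1.14 ± 0.05 (SE; limma, adjusted p = 4.7e-08). NUP93, the scaffold that binds the other inner ring proteins, fell with a log2 fold change of -0.94, NUP35 with -0.64 and NUP205 with -0.49. NUP188, the relative of NUP205, had 5472 and 5328 normalized counts in the No glucose libraries and 7694 and 7432 in the Ctrl libraries. The groups were apart here as well, with a log2 fold change of -0.49 ± 0.05 (SE; limma, adjusted p = 2.3e-05).

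The central channel trio NUP62, NUP58 and NUP54, FG nucleoporins that assemble with each other, fell by unequal amounts. NUP62 had 2158 and 2289.9 normalized counts in the No glucose libraries and 4188 and 4006 in the Ctrl libraries. It showed the deepest fall of the trio, with a log2 fold change of -0.88 ± 0.06 (SE; limma, adjusted p = 8.1e-07). NUP54 had 4026 and 3627 normalized counts in the No glucose libraries and 4336 and 4387 in the Ctrl libraries. Its log2 fold change was -0.19 ± 0.06 (SE; limma, adjusted p = 0.035), and 0.02 with library totals, so its direction depends on the scale. NUP58 lay between them at -0.31 ± 0.06 (SE; limma, adjusted p = 0.0011), and at -0.10 with library totals (adjusted p = 0.10). Their median was -0.31. That of the coding genes with a mean of at least 50, of which 47.2% fell, was -0.20.

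The cytoplasmic side is where mRNA leaves the pore and RanGTP is hydrolysed. Of its 7 genes 4 fell (57.1%), 1 rose (14.3%) and 2 did not pass the test, with a median of -0.35. The shares are near those of the coding genes with a mean of at least 50, of which 47.2% fell and 18.9% rose. The median of those coding genes was -0.20. NUP88 had 3157 and 3053 normalized counts in the No glucose libraries and 5535 and 5514 in the Ctrl libraries. The pairs were far apart, with a log2 fold change of -0.83 ± 0.05 (SE; limma, adjusted p = 5.8e-07). AAAS, the gene of the pore protein aladin, fell with a log2 fold change of -0.63, NUP42 with -0.48 and RAE1, an mRNA export factor, with -0.35. NUP214, which binds NUP88 in the pore, had 2106 and 2053 normalized counts in the No glucose libraries and 1998 and 2002 in the Ctrl libraries. The difference was small, with a log2 fold change of 0.06 (95% interval -0.08 to 0.19; limma, adjusted p = 0.53).

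RANBP2, the giant filament protein with SUMO ligase activity, had 17215 and 15913 normalized counts in the No glucose libraries and 15119.8 and 15015 in the Ctrl libraries. Both No glucose values were higher, but the log2 fold change of 0.14 ± 0.05 (SE; limma, adjusted p = 0.068) did not pass the test, and reads of RANBP2 and its near-copies, the RGPD genes, may not be fully separated. RGPD3 held 153 and 142 normalized counts in the No glucose libraries and 137 and 109.7 in the Ctrl libraries. NUP98, the FG nucleoporin that docks RAE1 and is a fusion partner in leukaemias, had 16631 and 16049 normalized counts in the No glucose libraries and 15043 and 14596 in the Ctrl libraries. Both No glucose values were higher, with a log2 fold change of 0.14 ± 0.05 (SE; limma, adjusted p = 0.043). That call was lost with edgeR (adjusted p = 0.071), with TMM scaling (adjusted p = 0.064) and without CTRL_7 (adjusted p = 0.35) or CTRL_8 (adjusted p = 0.54). NUP98 to RAE1, a pair that act together in mRNA export, was 4.89 and 5.05 in the No glucose libraries and 3.60 and 3.46 in the Ctrl libraries.

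In the nuclear basket 2 of 3 genes fell (66.7%), with a median of -0.34. The share was 47.2% and the median -0.20 in coding genes with a mean of at least 50. NUP153, which anchors the basket, had 7865 and 7679 normalized counts in the No glucose libraries and 11412 and 11236 in the Ctrl libraries. The groups were clearly apart, with a log2 fold change of -0.54 ± 0.05 (SE; limma, adjusted p = 6.2e-06). NUP50, a mobile basket protein that helps unload importin alpha, had 9079 and 8391 normalized counts in the No glucose libraries and 11168 and 10964 in the Ctrl libraries. It too was lower in both No glucose libraries, with a log2 fold change of -0.34 ± 0.05 (SE; limma, adjusted p = 0.00043). TPR, the coiled-coil protein that forms the basket fibres, had 21406 and 20284 normalized counts in the No glucose libraries and 22448 and 22616 in the Ctrl libraries. Both No glucose values were slightly lower, with a log2 fold change of -0.11 ± 0.05 (SE; limma, adjusted p = 0.097), and 0.10 with library totals (adjusted p = 0.038), whereas edgeR gave -0.16 (adjusted p = 0.0068).

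The transmembrane nucleoporins anchor the pore in the envelope, and 2 of them fell while 1 rose. Coding genes with a mean of at least 50 had 47.2% lower and 18.9% higher. NUP210 had 5516 and 6136 normalized counts in the No glucose libraries and 10785 and 10201 in the Ctrl libraries. The pairs were far apart, with a log2 fold change of -0.85 ± 0.06 (SE; limma, adjusted p = 1.2e-06). NDC1 fell by 0.76 on the log2 scale. POM121 had 755 and 752 normalized counts in the No glucose libraries and 645 and 546 in the Ctrl libraries. It was higher in both No glucose libraries, with a log2 fold change of 0.34 ± 0.09 (SE; limma, adjusted p = 0.013). The POM121 call was lost when any 1 of the 4 libraries was left out (adjusted p = 0.077 without CTRL_7, 0.27 without CTRL_8, 0.12 without ONG_9 and 0.11 without ONG_10). POM121 and POM121C are near-identical genes on chromosome 7, so their reads may be split between them. POM121C, which the symbol rule did not take, had 669 normalized counts in both No glucose libraries and 437 and 393 in the Ctrl libraries.

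Of 3 further symbol matches outside these roles, 1 fell. Over all 27486 genes tested, 20.7% fell. NUP62CL, a gene named for its likeness to the NUP62 C terminus, had 119.8 and 109 normalized counts in the No glucose libraries and 240.1 and 251 in the Ctrl libraries. The values were low but apart, with a log2 fold change of -1.10 ± 0.12 (SE; limma, adjusted p = 3.5e-05). NUP210L, a relative of NUP210, had 42.5 and 54.7 normalized counts in the No glucose libraries and 66.0 and 61.5 in the Ctrl libraries (limma, adjusted p = 0.17). NUP50-DT, a noncoding RNA transcribed away from NUP50, had 182 and 173 normalized counts in the No glucose libraries and 148 and 142 in the Ctrl libraries. It did not pass the test (log2 fold change 0.29 ± 0.12, SE; limma, adjusted p = 0.10), while the neighbouring NUP50 fell.

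Transcript length was a feature that the symbol rule did not use. Across the 56 protein-coding genes with a mean of at least 50, the log2 fold change went up with log2 principal transcript length (Spearman's rho 0.44, Pearson's r 0.54). With the mean Ctrl level it gave a rho of -0.16 and an r of -0.15. The points are genes read in the same 4 libraries and are not independent. A slope of the same sign was seen in all protein-coding genes of that class, whose median log2 fold change was -0.40 in the shortest of 5 equal classes of length and -0.03 in the longest. The medians of the set in these classes, shortest first, were -0.64 (5 genes), -0.35 (7 genes), -0.86 (6 genes), -0.63 (19 genes) and -0.41 (19 genes), so they did not rise step by step with length. In the shortest class 5 of 5 were lower, where 59.6% of all coding genes were, and in the longest 11 of 19, where 35.2% of all were. This longest class includes RANBP2, NUP98, NUP214 and TPR, none of which was called lower. It also includes NUP155 at -1.14 and XPO4 at -0.51, which are among the 11 called lower.

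**Figure D4:**
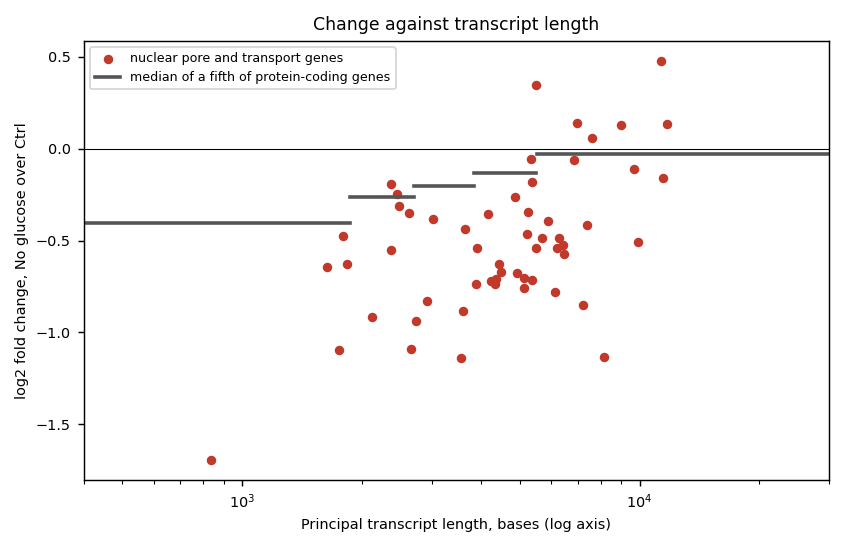
The log2 fold change, No glucose over Ctrl (y axis), against principal transcript length on a log axis, with the nuclear pore and transport genes as points and the medians of protein-coding genes in 5 equal classes of length. The median of coding genes goes up from -0.40 in the shortest class to -0.03 in the longest, and most of the points lie below it.

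Promoters were matched in RefSeq (GRCh38.p14) for 51 of the 58 genes, as windows of 300 bases around the annotated start. The letters CCAAT, known as the CCAAT box, were found in 24 of 51 (47.1%), against 35.7% of all 27305 promoters of that length. The letters TTTGAA, the cell cycle homology region or CHR, was found in 11 (21.6%, against 15.4% of all). CACGTG, the E-box that MYC and its relatives read, was found in 8 (15.7%, against 7.43% of all). CCGGAAGT, an ETS site, was found in 8 (15.7%, against 4.44% of all), and the palindromic NRF1 site in 4 (7.84%, against 1.36% of all). TTTCGCGC, an E2F site, was found in 2 (3.92%, against 0.546% of all). Both strands were searched, and matches of different motifs were counted even where they overlap. The windows of NUP50 and NUP50-DT overlap, and the CACGTG and the NRF1 site that they share were counted for each gene. Such a match is a description of the letters and not of binding. The 27305 promoters were not limited to protein-coding or expressed genes, so they are a less close background than the one used for the calls.

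The median log2 fold change was -0.53 in genes with CCAAT and -0.52 in those without, -0.51 with CACGTG and -0.52 without, -0.55 with TTTGAA and -0.48 without, and -0.33 with the ETS letters and -0.54 without. It was -0.46 with the NRF1 site and -0.52 without, and -0.62 with the E2F letters and -0.51 without. No test was made of these medians, some of which rest on few genes, and RANBP1 and KPNA5, at the ends of the range of fold changes, were not among the promoters matched. Promoters are shown for 4 genes that share TTTGAA yet moved differently: RAN and CSE1L fell by over 1 on the log2 scale, KPNA2 fell by 0.25 and NUP98 was higher. Capitals mark the letters of the CCAAT box, the CHR and the E-box on either strand, and each sequence runs 5' to 3' on the gene's own strand.
RAN (chr12:130871816-130872115, plus strand): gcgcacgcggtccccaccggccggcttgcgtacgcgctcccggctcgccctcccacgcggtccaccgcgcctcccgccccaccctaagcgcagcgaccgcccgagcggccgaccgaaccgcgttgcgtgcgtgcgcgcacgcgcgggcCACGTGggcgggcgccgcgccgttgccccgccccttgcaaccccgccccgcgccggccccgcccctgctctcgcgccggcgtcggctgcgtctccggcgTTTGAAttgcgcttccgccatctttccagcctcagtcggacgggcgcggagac
CSE1L (chr20:49046062-49046361, plus strand): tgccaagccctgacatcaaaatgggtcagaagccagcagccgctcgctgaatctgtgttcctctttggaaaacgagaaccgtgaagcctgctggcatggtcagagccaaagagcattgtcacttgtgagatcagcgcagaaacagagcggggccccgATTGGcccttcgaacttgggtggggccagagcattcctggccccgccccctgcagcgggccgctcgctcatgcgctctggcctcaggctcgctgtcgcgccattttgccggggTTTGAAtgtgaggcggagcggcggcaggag
KPNA2 (chr17:68035485-68035784, plus strand): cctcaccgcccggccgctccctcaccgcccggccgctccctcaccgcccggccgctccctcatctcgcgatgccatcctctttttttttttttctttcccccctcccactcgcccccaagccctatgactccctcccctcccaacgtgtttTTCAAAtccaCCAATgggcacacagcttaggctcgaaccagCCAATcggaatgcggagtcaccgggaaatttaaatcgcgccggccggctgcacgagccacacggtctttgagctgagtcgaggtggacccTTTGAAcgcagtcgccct
NUP98 (chr11:3797497-3797796, minus strand): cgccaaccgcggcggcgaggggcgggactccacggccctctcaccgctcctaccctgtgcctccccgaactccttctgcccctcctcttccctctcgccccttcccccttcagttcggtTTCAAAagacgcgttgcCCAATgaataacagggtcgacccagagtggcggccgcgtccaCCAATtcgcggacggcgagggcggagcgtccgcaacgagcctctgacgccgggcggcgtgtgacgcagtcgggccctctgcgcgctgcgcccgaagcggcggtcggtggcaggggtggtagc
In these windows RAN has CACGTG and no CCAAT, CSE1L has 1 CCAAT box, and KPNA2 and NUP98 have 2 each. The start that RefSeq gives can differ from the gene start in the annotation used for positions elsewhere.

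Other genes of the same machinery, taken from a list of 13, were mostly lower too. Of 12 tested 9 fell (75.0%) and 1 rose (8.33%), with a median of -0.38. Among coding genes with a mean of at least 50, 47.2% fell and 18.9% rose, with a median of -0.20. RCC1, the chromatin-bound exchange factor that loads Ran with GTP, averaged 2411 ± 85.4 normalized counts in No glucose cells and 5906 ± 150.1 in Ctrl cells (SD, n = 2 each). Its log2 fold change of -1.29 ± 0.06 (SE; limma, adjusted p = 4.9e-08) was somewhat lower than that of RAN, -1.09 ± 0.05 (SE). NUTF2, which carries RanGDP back into the nucleus, averaged 2164 ± 55.7 normalized counts in No glucose cells and 5133 ± 29.9 in Ctrl cells (SD, n = 2 each), with a log2 fold change of -1.25 ± 0.06 (SE; limma, adjusted p = 5.5e-08). RANGRF, the gene of another Ran-binding protein, had overlapping groups (limma, adjusted p = 0.44). The 1 that rose was POM121C, with a log2 fold change of 0.69 ± 0.09 (SE; limma, adjusted p = 8.7e-05). With library totals 5 of the list were called lower and 2 higher, and without either CTRL_7 or CTRL_8 only 4 were lower.

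Of the mRNA export genes, which serve the passage of mRNA through the pore, 19 of 20 were tested. Of these 13 fell (68.4%) and 2 rose (10.5%), with a median of -0.48. The coding genes with a mean of at least 50 had 47.2% lower, 18.9% higher and a median of -0.20. DDX39B was listed at 0 in all 4 libraries under the gene ID taken for its symbol. Reads under any other ID of that symbol were not looked for, so absence of the transcript is not shown. ALYREF, the adaptor that recruits the export receptor to spliced mRNA, averaged 3569 ± 251 normalized counts in No glucose cells and 10186 ± 539 in Ctrl cells (SD, n = 2 each), with a log2 fold change of -1.51 ± 0.06 (SE; limma, adjusted p = 3.7e-08). NXT1, the small partner of the receptor, fell by 1.06 on the log2 scale. NXF1, the receptor itself, rose, with 3314 ± 49.3 normalized counts in No glucose cells and 2751 ± 46.1 in Ctrl cells (SD, n = 2 each) and a log2 fold change of 0.27 ± 0.06 (SE; limma, adjusted p = 0.0032). POLDIP3 rose by 0.15 on the log2 scale (limma, adjusted p = 0.049), and with edgeR 1 gene of the list in place of 2 was called higher. Without CTRL_7, and again without CTRL_8, the list had 6 lower calls and 0 higher.

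Among envelope and lamina genes, the surroundings of the pore, 7 of 13 fell (53.8%) and 3 rose (23.1%), shares near those of the coding genes with a mean of at least 50 (47.2% and 18.9%). Their median was -0.36. The B-type lamins fell, with log2 fold changes of -1.13 for LMNB2 and -0.89 for LMNB1. LMNA, the A-type lamin, was scarce but higher, with 34.9 and 39.3 normalized counts in the No glucose libraries and 5.84 and 8.03 in the Ctrl libraries. The rise was far larger than the spread of either pair, with a log2 fold change of 2.27 ± 0.34 (SE; limma, adjusted p = 0.00026). SYNE1, the gene of a large linker protein of the outer nuclear membrane, rose by 0.72 on the log2 scale, and SUN2 was the third that rose. Without CTRL_7 4 of the list were called lower and 1 higher, and without CTRL_8 4 and 2.

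Counting could mix some neighbours. Exons of 26 of the genes overlap those of another annotated gene, on the same strand in 10 and on the opposite strand in 22. The library kit keeps strand, but the counting strand is not given, so reads of such pairs cannot be told apart here. Beside IPO4, the same-strand overlap was 1707 exon bases in IPO11 and 720 in NUP62. On the opposite strand it was 1853 bases in POM121, 1377 in KPNA1, 1196 in NUP214 and 988 in NUP88. RANBP1, with the deepest fall, shared 125 exon bases on its strand and 393 on the opposite strand.

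The fall of the set relative to other genes was much the same size under each processing tried. With library totals as the scale the median of the protein-coding genes was 0.01 and that of the pore and transport genes -0.31, so the distance between them stayed at -0.32. RAN, RANBP1, CSE1L, NUP155, KPNB1 and XPO1 kept their direction under all 15 alternatives. So did the other genes of the 57, but for 6 that turned positive with library totals.

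**Figure D5:**
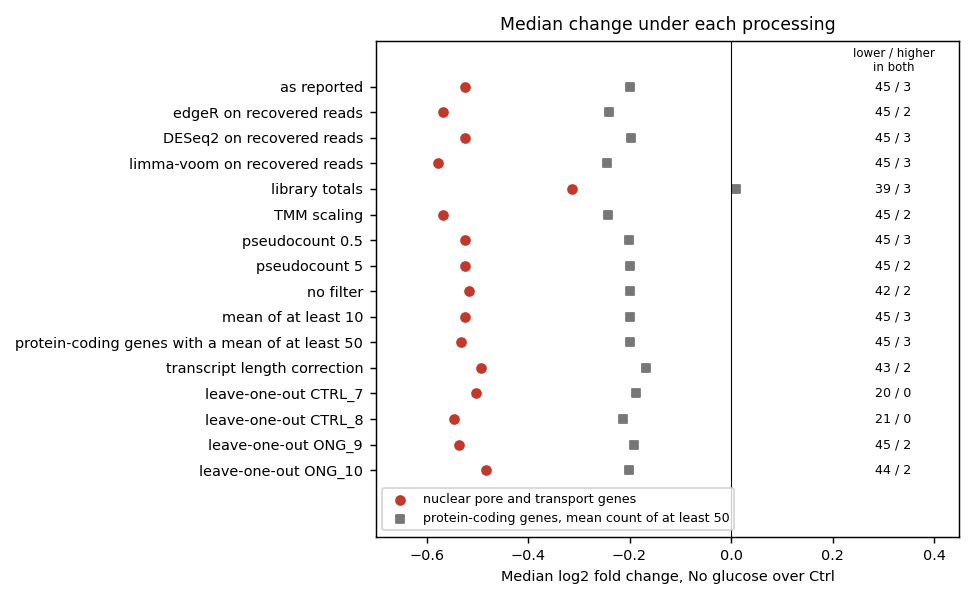
Median log2 fold change, No glucose over Ctrl (x axis), of the nuclear pore and transport genes (red) and of protein-coding genes with a mean of at least 50 (grey) under each processing, with the number of genes called lower and higher both there and in the reported fit at the right. The red point lies left of the grey one in every row, and the shared calls drop to 20 and 21 lower when a Ctrl library is left out.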

How the data were processed

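RNA from 4 libraries was compared, 2 from No glucose cells and 2 from Ctrl cells. Per the submitters' processing notes, STAR 2.6.0c, RSEM 1.3.0 and DESeq2 1.18.1 were used with hg38. Annotation release and counting strand are not given in the sources used here. The signal values are normalized counts, which the authors divided by one size factor per library before deposit. The log2 fold changes, score values (test statistics) and p-values deposited by the authors served only to count their calls. Columns named ONG were taken as No glucose, since the table holds only one other kind of column, named CTRL. Of all values above 0, 100% lay within 0.01 of a whole number of reads once each library's scaling was undone.

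The table held 60868 entries for 60609 gene IDs, and the deposited symbols gave 59 matches, of which 1 pseudogene (NUP210P1) was left out. GENCODE 29, which holds 58457 of the IDs, gave gene classes, positions and lengths. Genes averaging 1 normalized count or more over the 4 libraries were fitted with limma 3.58.1 (trend; R 4.3.3) on log2(normalized count + 1), with no covariate, a two-sided test, Benjamini-Hochberg adjustment over all genes tested and a threshold of 0.05. This scale understates the change of genes with few reads. Intervals are 95% confidence intervals of the log2 fold change, not adjusted. Alternatives used edgeR 4.0.16, DESeq2 1.42.0 and limma-voom on the recovered reads, 2 other scalings, 2 other pseudocounts, 3 other filters, a correction for transcript length, and each library left out in turn.

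The members, gene lists and roles were chosen with earlier results of these data known. Values in every library are given for RAN, KPNA2, KPNB1, XPO1 and, in each role, for the called genes with the lowest and the highest fold change. Of each further list, up to 2 called genes at either end are named. Other genes with values in every library, and the ratios between genes, were chosen after their values were seen. Promoter sequences come from RefSeq on GRCh38.p14, and those of chromosome 8 are not used here. One cell type marker is not reported here.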

Additional observations from a re-analysis of the deposited data

How the results depend on the processing

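No paired analysis was possible because the table's columns do not carry the replicate numbers of the labels. The median log2 fold change of the 57 genes tested, -0.52, was -0.57 with edgeR, -0.57 with TMM scaling, -0.58 with limma-voom, -0.49 with a length correction and -0.31 with library totals as the scale, and -0.55 to -0.48 with 1 library left out. Its distance to the median of the protein-coding genes was -0.34 to -0.28 over all 15 alternatives. With library totals the median of all genes was 0.23, against 0.04, and 9 of the genes were called higher, against 3. There 6 genes turned positive: NUP160 (0.027), NUP54 (0.020), IPO9 (0.053), TPR (0.10), KPNA1 (0.15) and IPO8 (0.16). With 1 library left out, 20 to 46 genes were called lower and 0 to 4 higher, and none changed sign. Without a Ctrl library the remaining one is assumed to vary like the No glucose pair, and calls over all genes fell as well, to 1573 lower and 726 higher without CTRL_7. Among the other pore and transport genes, library totals gave 5 lower and 2 higher, and leaving out a library 4 to 9 lower and 0 to 2 higher. Of the mRNA export genes, 1 was called higher with edgeR, DESeq2, limma-voom, TMM scaling, a pseudocount of 0.5 or no filter, and 4 with library totals. Leaving out a library gave 6 to 14 lower and 0 to 2 higher for that list. In the envelope and lamina list, library totals gave 5 higher, and leaving out a library 4 to 8 lower and 1 to 4 higher. The DESeq2 calls of all 57 genes were as with limma. Intervals were wide for IPO4 (-0.80 to -0.07), which edgeR called (adjusted p = 0.035), and NUP210L (-0.85 to 0.06), both with few reads, and KPNA7 was under the filter.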
